A study of Mus musculus with 6 samples.

Results

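The genes described here are 10 genes by which tuft cells and the Trpm5-positive microvillous cells of the nose are recognised: Trpm5, Plcb2, Gnat3, Pou2f3, Gfi1b, Chat, Il25, Alox5, Ltc4s and Dclk1. They were chosen by name, and all 10 were found among the 24661 genes of the deposited tables. They were measured by RNA-Seq in 6 libraries of whole olfactory mucosa, 1 per mouse, from C57BL/6 mice at postnatal day 21, of which 3 were wild-type and 3 RTP1,2DKO. RTP1,2DKO mice carry null alleles of both Rtp1 and Rtp2 (labelled RTP1 and RTP2 -/-), which encode receptor transporting proteins that carry odorant receptors (ORs) to the surface of olfactory sensory neurons (OSNs). Per the methods, the alleles were made in hybrid embryonic stem cells by replacing the coding regions with selection cassettes, the mice were sex-matched littermates, and the dissected mucosa held tissue around the epithelium as well.

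Tuft cells are rare, solitary epithelial cells that sense chemicals, microbes and allergens with the taste transduction cascade: a G protein of the gustducin type, phospholipase C beta 2 and the channel TRPM5. The transcription factor Pou2f3 is required for them to form. They signal with acetylcholine, with the cytokine IL-25 and with cysteinyl leukotrienes, which are made from arachidonic acid by the products of Alox5 and Ltc4s. In the main olfactory epithelium, the Trpm5-positive microvillous cells are cholinergic cells of this class that lie among the OSNs and supporting cells. Several of the 10 genes are also used elsewhere: Dclk1 in neurons, Alox5 and Ltc4s in myeloid and mast cells, and Gfi1b in erythroid cells and megakaryocytes.

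None of the 10 genes was called different between RTP1,2DKO and wild-type mice in edgeR's quasi-likelihood test, where 3.63% of the 22152 genes tested were called. No gene of the 10 was called by edgeR's exact or likelihood-ratio test or by DESeq2, which called 5.81% of the genes it gave an adjusted p, and none passed an unadjusted p of 0.05, against 12.1% of all genes. In each of the 10 the mice of the groups overlapped, while 16.4% of all genes did not overlap (7.17% higher and 9.24% lower in RTP1,2DKO). In the same libraries 11 of 11 genes of mature OSNs fell, the deleted Rtp1 and Rtp2 among them, against 3.19% of all genes. The median log2 fold change of the 10 genes was 0.12 and that of all genes tested 0.016, with 6 of the 10 above 0. In whole tissue, fewer cells of a type and less RNA per cell cannot be told apart.

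The targeted genes followed the labels. Rtp1 stood at 20521.9, 25300.9 and 13542.6 normalized counts in wild-type mice 1 to 3 and at 90.6, 85.5 and 108.8 in RTP1,2DKO mice 1 to 3. Rtp2 stood at 8496.7, 9510.5 and 7156.7 against 58.0, 26.2 and 51.0. The libraries held 31125410 to 41636996 estimated counts, and a normalized count is a gene's count divided by the size factor of its mouse (0.907 to 1.147). A single secreted protein gene, Bpifb9b, took 4.81 to 13.74% of the counts.

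The first group of genes makes up the transduction cascade. Trpm5, the calcium-activated cation channel that depolarises the cell, was at 115.9, 149.8 and 129.0 normalized counts in wild-type mice 1 to 3 and at 122.2, 118.6 and 114.7 in RTP1,2DKO mice 1 to 3. The RTP1,2DKO mice lay close together, and 2 of them fell inside the wild-type range. The log2 fold change was -0.15 (SE 0.22), with a 95% confidence interval from -0.63 to 0.32 and an adjusted p of 0.858 in edgeR. In folds the interval runs from 0.648 to 1.25.

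Plcb2, the phospholipase that produces the second messenger upstream of TRPM5, was at 94.1, 75.4 and 87.1 normalized counts in wild-type and 128.6, 78.5 and 141.1 in RTP1,2DKO mice. RTP1,2DKO mice 1 and 3 lay above every wild-type mouse, and RTP1,2DKO mouse 2 lay among them. The difference had the smallest p of the 10 genes, a log2 fold change of 0.44 (SE 0.28, interval -0.17 to 1.04) with an adjusted p of 0.625 in edgeR. Without RTP1,2DKO mouse 2 it was 0.66 and its adjusted p 0.412, the lowest of any of the 10 genes under any alternative.

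Gnat3, which encodes the alpha subunit of gustducin, was at 52.8, 76.3 and 35.3 normalized counts in wild-type and 35.8, 70.6 and 29.4 in RTP1,2DKO mice. In both groups the mouse numbered 2 was highest and the mouse numbered 3 lowest. The means were 54.8 ± 20.6 (SD, n = 3) and 45.3 ± 22.2 (SD, n = 3), so the groups lay closer together than the mice within them. Its log2 fold change was -0.27 (SE 0.41, interval -1.16 to 0.63) with an adjusted p of 0.867 in edgeR, and it was 0.06 without wild-type mouse 2.

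The second group holds the transcription factors. Pou2f3, the POU-domain factor that specifies tuft cells, was at 136.5, 160.3 and 125.7 normalized counts in wild-type and at 125.4, 149.1 and 106.8 in RTP1,2DKO mice. In both groups mouse 2 was again highest and mouse 3 lowest, and each RTP1,2DKO mouse lay below the wild-type mouse of the same number. The log2 fold change was -0.15 (SE 0.23, interval -0.64 to 0.34) with an adjusted p of 0.866 in edgeR, so a fall below 0.642-fold lies outside its interval.

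Gfi1b, a zinc-finger repressor shared by tuft cells and the erythroid and megakaryocyte lineages, was at 9.3, 13.4 and 20.9 normalized counts in wild-type mice. It reached 32.7 in RTP1,2DKO mouse 1 but only 9.6 and 8.8 in RTP1,2DKO mice 2 and 3. The log2 fold change of 0.20 (SE 0.63, interval -1.18 to 1.57, adjusted p 0.947 in edgeR) rested on that mouse and became -0.64 without it. RTP1,2DKO mouse 1 was also the highest mouse for Hbb-bs, a beta-globin gene, at 141340.4 normalized counts against 49495.0 to 78252.7 in wild-type and 77784.3 and 100022.3 in the other RTP1,2DKO mice. The other globin and erythroid genes of the list described below were also highest in RTP1,2DKO mouse 1. Its platelet genes were not. Pf4, Ppbp and Itga2b were highest in wild-type mouse 2, at 67.7, 1864.3 and 254.7 normalized counts. They were at 55.8, 747.1 and 177.0 in RTP1,2DKO mouse 1. Gp9 was highest in RTP1,2DKO mouse 2, at 14.8 against 8.4 in RTP1,2DKO mouse 1. Whether blood cells account for the Gfi1b count of RTP1,2DKO mouse 1 was not tested.

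The third group makes the signals that tuft cells release. Chat, the enzyme that makes acetylcholine, was the lowest of the 10 per length and was counted at 4.1, 2.9 and 11.0 in wild-type and 5.3, 10.5 and 8.8 in RTP1,2DKO mice, all as normalized counts. At so few counts the interval was wide, from -1.13 to 2.14 around a log2 fold change of 0.50 (SE 0.75), with an adjusted p of 0.861 in edgeR. In folds the interval spans 0.456 to 4.4, so changes within it are not excluded. Without wild-type mouse 3, the highest of its group, the log2 fold change was 1.23 (adjusted p 0.677).

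Il25, the cytokine by which tuft cells call on group 2 innate lymphoid cells, was at 6.2, 2.9 and 2.2 normalized counts in wild-type mice. It had no count in RTP1,2DKO mice 1 and 2, where a count of 0 allows up to 3.2 and 2.6 normalized counts, and 6.9 in RTP1,2DKO mouse 3. The highest and the lowest values of Il25 thus both lay in RTP1,2DKO mice, and the log2 fold change of -0.71 (SE 1.34, interval -3.56 to 2.14) had an adjusted p of 0.896 in edgeR. Without RTP1,2DKO mouse 3 its group had no count at all, so that no fold change can be given there.

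Alox5, the 5-lipoxygenase that starts leukotriene synthesis, was at 74.5, 92.5 and 71.7 normalized counts in wild-type and 110.6, 109.0 and 83.3 in RTP1,2DKO mice. RTP1,2DKO mice 1 and 2 lay above every wild-type mouse and RTP1,2DKO mouse 3 lay inside the wild-type range. Its log2 fold change was 0.34 (SE 0.26, interval -0.22 to 0.90) with an adjusted p of 0.709 in edgeR.

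Ltc4s, the synthase that joins leukotriene A4 to glutathione, was at 5.2, 21.9 and 12.1 normalized counts in wild-type and 12.6, 18.3 and 14.7 in RTP1,2DKO mice. All RTP1,2DKO values fell inside the wild-type range. Its fitted log2 fold change was 0.21 (SE 0.58, interval -1.06 to 1.47) with an adjusted p of 0.939 in edgeR, and it was -0.17 without wild-type mouse 1.

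Dclk1, a microtubule-binding kinase used as a tuft cell marker in the gut and also a gene of neurons, stood apart by its level. It was at 9239.4, 8025.9 and 5889.8 normalized counts in wild-type and 8721.8, 7361.2 and 7849.4 in RTP1,2DKO mice, with every RTP1,2DKO mouse inside the wild-type range. The log2 fold change was 0.05 (SE 0.15, interval -0.29 to 0.38) with an adjusted p of 0.948 in edgeR. The interval was the narrowest of the 10 genes and ran from 0.818 to 1.31 in folds.

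Dclk1 alone supplied 92.25 to 94.88% of the counts of the 10 genes in each mouse. The other 9 together gave 495.0 to 595.4 normalized counts in wild-type and 514.5 to 573.2 in RTP1,2DKO mice, and the RTP1,2DKO range lay inside the wild-type one.

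**Figure D1:**
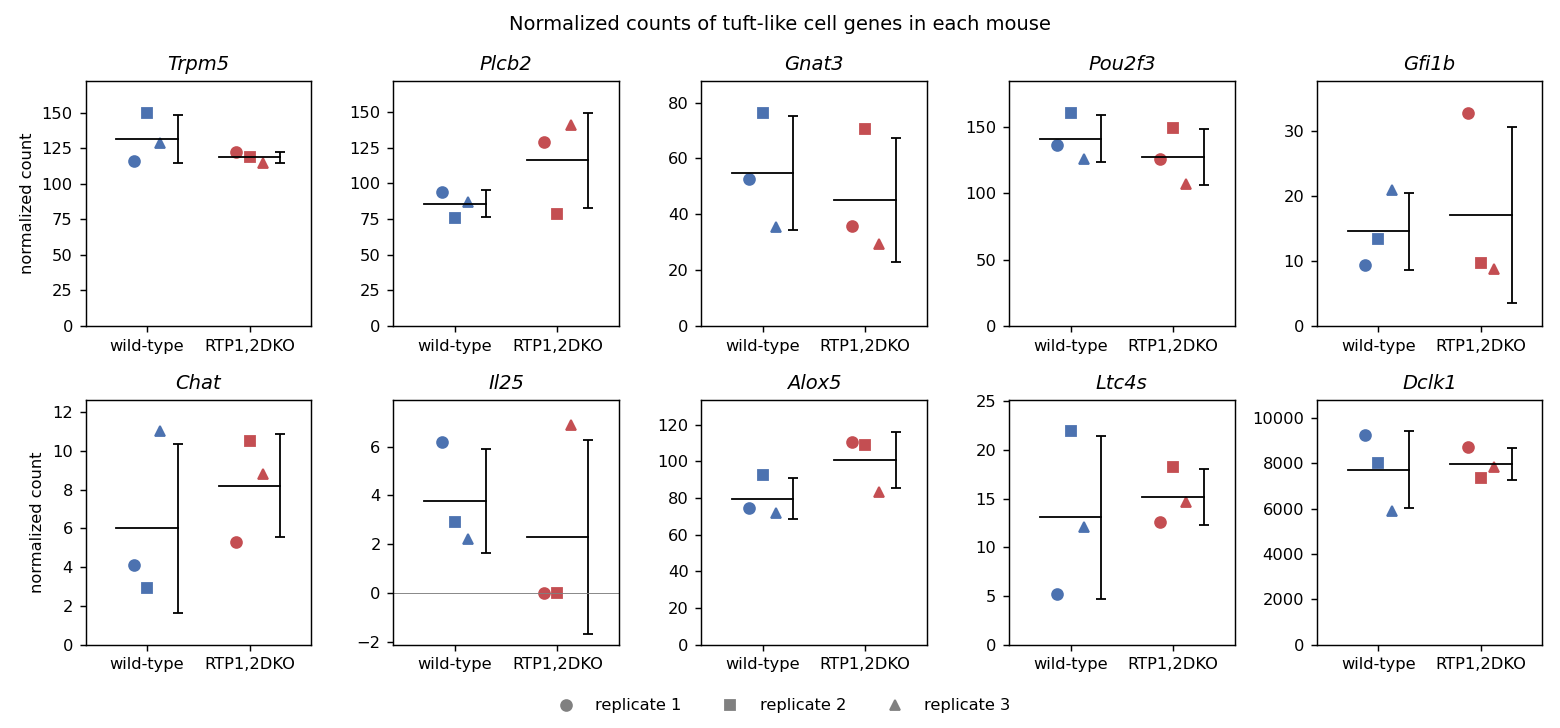
Normalized counts (vertical axes, 1 panel per gene) of the 10 genes in wild-type (blue) and RTP1,2DKO (red) mice, with symbols for the replicate number, lines for group means and bars for 1 SD (n = 3). The groups overlap in every panel, and the single high RTP1,2DKO point of Gfi1b is mouse 1 at 32.7.

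The intervals of the 10 genes can be set beside the mature OSN genes of the same fit. Adcy3, the adenylate cyclase of odorant transduction, went from 15888.7, 13012.1 and 12651.8 normalized counts in wild-type to 5089.6, 5303.1 and 5210.4 in RTP1,2DKO mice, a log2 fold change of -1.41 (SE 0.12, adjusted p 6.53e-05 in edgeR). Stoml3, a membrane protein of OSN cilia, fell by 2.00 on the log2 scale (SE 0.17, adjusted p 6.53e-05 in edgeR). Omp, the marker of mature OSNs, changed least of the 11 genes, with a log2 fold change of -0.90 (SE 0.16, interval -1.26 to -0.55, adjusted p 0.00673 in edgeR). The intervals of Plcb2, Alox5 and Dclk1 lay above that of Omp. Those of Trpm5 and Pou2f3 overlapped its upper end, though not the value of -0.90, and those of Gnat3, Gfi1b, Chat, Il25 and Ltc4s included that value. The intervals were not tested against each other. Log2 ratios to Omp and Adcy3 within each mouse were compared between the groups by exact permutation. With 3 mice per group its p cannot fall below 0.1, so it could decide nothing here.

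**Figure D2:**
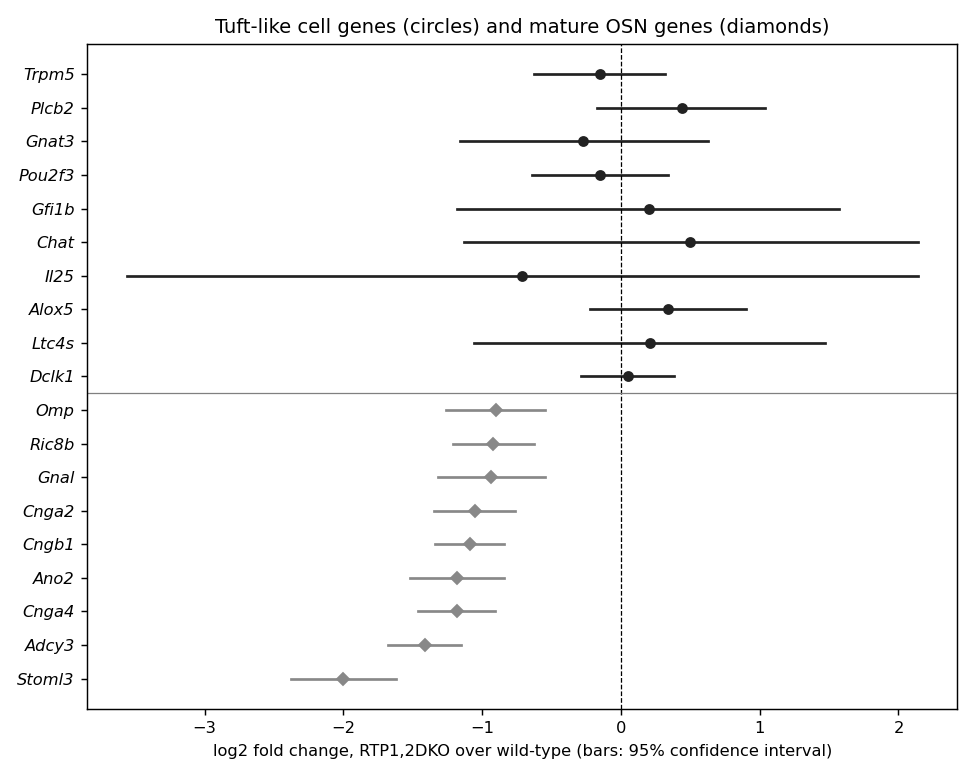
Log2 fold changes of RTP1,2DKO over wild-type (horizontal axis, bars for 95% confidence intervals) of the 10 tuft-like cell genes (circles) and of 9 mature OSN genes (diamonds), with Rtp1 and Rtp2 left out. The intervals of the 10 tuft-like cell genes all cross 0, and those of the mature OSN genes lie below it, with points from -0.90 for Omp to -2.00 for Stoml3.

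Per transcript length, the 10 genes covered a wide range. TPM, the deposited count per length scaled to a fixed total per library, was 45.3 ± 17.3 (SD, n = 3) for Dclk1 in wild-type mice, followed by Ltc4s at 3.34 ± 1.98, Gnat3 at 2.97 ± 1.6 and Pou2f3 at 2.32 ± 0.741. Alox5 stood at 1.14 ± 0.373, Trpm5 at 1.1 ± 0.321 and Plcb2 at 0.595 ± 0.132. Gfi1b at 0.377 ± 0.0872, Il25 at 0.246 ± 0.163 and Chat at 0.0772 ± 0.0326 were lowest. The wild-type ranges of neighbours in this order did not overlap between Dclk1 and Ltc4s, Pou2f3 and Alox5, Trpm5 and Plcb2, and Plcb2 and Gfi1b. All other neighbours overlapped, and the order of the group means was the same in RTP1,2DKO mice. Trpm5 lay above or level with 35.1% of all genes of the tables in mean wild-type TPM and Dclk1 with 91.4%. The position of Ltc4s rests on 5 to 23 estimated counts on transcripts of 552 to 680 bases.

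**Figure D3:**
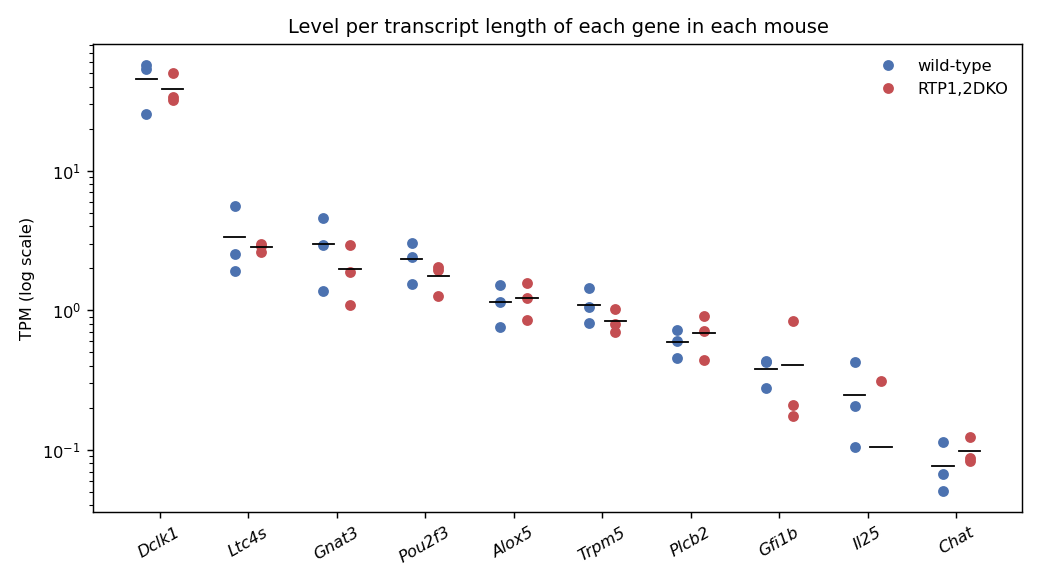
TPM (vertical axis, log scale) of each of the 10 genes in each wild-type (blue) and RTP1,2DKO (red) mouse, ordered by the wild-type mean, with lines for group means; the 2 RTP1,2DKO mice with no Il25 count are not drawn. All 6 points of Dclk1 lie above those of the other genes, which fall from Ltc4s to Chat.

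Of these genes, 4 were deposited with more than 1 transcript. Dclk1 had 7, of which those of 6956 and 5175 bases took 38.84 to 43.78% and 36.87 to 43.81% of its TPM, and that of 6026 bases 8.98 to 15.70%. These shares overlapped between the groups. The other Dclk1 transcripts took at most 5.88% each.

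The remaining genes with several transcripts gave unstable splits between similar transcripts. The TPM of Plcb2 was assigned wholly to the transcript of 5091 bases in wild-type mouse 1 and wholly to that of 5145 bases in wild-type mice 2 and 3, while in RTP1,2DKO mice 1 to 3 the longer one took 69.21, 90.59 and 99.29%. Gfi1b was assigned to its transcript of 1724 bases in 5 mice and to that of 1823 bases in RTP1,2DKO mouse 1, the mouse with its highest count. Ltc4s moved between 4 transcripts of 552 to 680 bases with no pattern by group. Gene totals do not depend on these splits, apart from the effective length behind TPM.

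**Figure D4:**
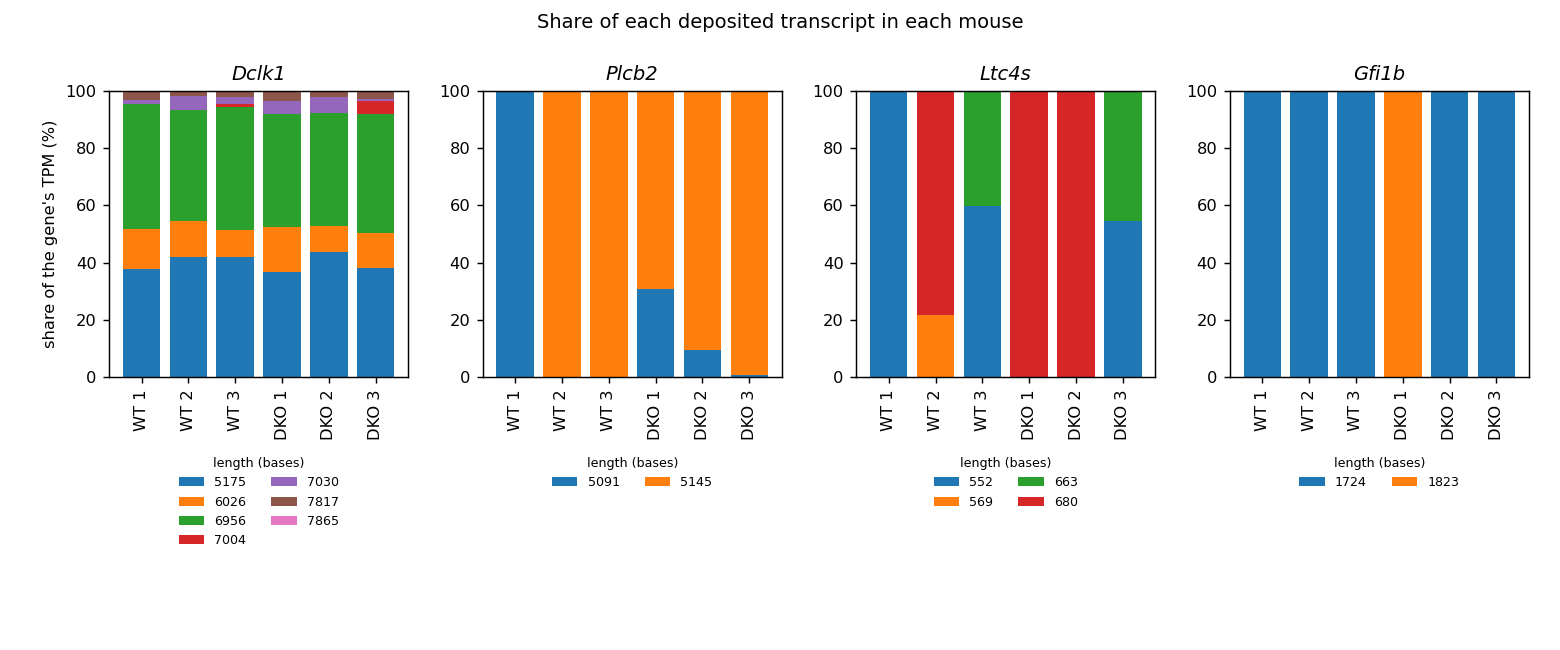
Share of each deposited transcript in the TPM of its gene (vertical axis, percent) in wild-type (WT) and RTP1,2DKO (DKO) mice for the 4 genes with several transcripts, colored by length. Dclk1 keeps the same main transcripts in all 6 mice, whereas Plcb2, Ltc4s and Gfi1b switch between mice of 1 group.

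Positions were taken from the GENCODE M21 annotation (GRCm38), in which all 10 are protein-coding genes. Trpm5 lies on chromosome 7 at 143069153 to 143094642 on the minus strand and overlaps Tssc4 on the other strand. Pou2f3 lies on chromosome 9 at 43123939 to 43210369 on the minus strand. Chat lies on chromosome 14 at 32408203 to 32465989 and holds Slc18a3, the vesicular acetylcholine transporter gene, on the same strand. Dclk1 spans chromosome 3 from 55242364 to 55539068. Of all words of 31 bases in the transcripts of a gene, 85.8% for Ltc4s and 95.9 to 100% for the other 9 occurred in no other annotated gene. Plcb2, Gnat3, Il25, Alox5 and Gfi1b stood at 100% after rounding. The words came from the annotated protein-coding transcripts, not from the deposited ones.

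Further genes of the same cells and pathways were read from lists chosen by function. The list of other tuft cell genes held 31 names, of which 29 were tested. None of these was called in edgeR or DESeq2, against 3.63% and 5.81% of the genes with an adjusted p. None had an unadjusted p under 0.05, against 12.1% of all genes. Their median log2 fold change was 0.10 (0.09 over the 23 genes with a mean of at least 10 normalized counts). None separated the groups, against 16.4% of all genes. Sh2d6 is not analysed here, and Itprid1 is listed as Ccdc129. Avil, the actin-binding advillin, was at 87.9, 66.8 and 81.6 normalized counts in wild-type and 49.5, 76.7 and 66.6 in RTP1,2DKO mice. Il17rb, a subunit of the IL-25 receptor, was at 105.5, 78.2 and 103.6 against 108.5, 78.5 and 120.5. The members with the highest mean TPM were Kctd12, with a log2 fold change of -0.07 (SE 0.16, adjusted p 0.923 in edgeR), and Ly6g6d, with 0.25 (SE 0.27, adjusted p 0.795 in edgeR). Avil and Il17rb were picked here after their values were seen, as widely used markers.

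Of the other genes of taste transduction, 8 were tested and none was called by the quasi-likelihood test. Of the 8, 2 had an unadjusted p under 0.05, where 12.1% of all genes had one. In 3 of the 8 every RTP1,2DKO mouse lay below every wild-type mouse, against 9.24% of all genes. Gng13, the gamma subunit of gustducin and also a G protein subunit of OSNs, was at 862.7, 1580.9 and 911.8 normalized counts in wild-type and 741.8, 697.7 and 538.0 in RTP1,2DKO mice. Gnb1, a beta subunit used in most cells, was at 86794.1, 96011.4 and 75408.9 against 63994.7, 61967.7 and 61069.3. Neither gene overlapped between the groups, and the log2 fold changes were -0.76 (SE 0.22, adjusted p 0.0924 in edgeR) for Gng13 and -0.47 (SE 0.16, adjusted p 0.178 in edgeR) for Gnb1. The third gene that did not overlap was the taste receptor gene Tas1r1, at 92.1, 83.0 and 88.2 against 66.4, 60.2 and 61.7. Its log2 fold change was -0.48 (SE 0.26, adjusted p 0.514 in edgeR). Gng13 passed the threshold in the exact and likelihood-ratio tests and in DESeq2 (adjusted p 0.0495, 0.0459 and 0.0141), and Gnb1 in DESeq2 (adjusted p 0.00444). Per length, Gnb1 had a wild-type mean of 1096 TPM, beside 1277 for the mature OSN gene Omp. Which cells Gng13 and Gnb1 came from was not tested. Itpr3, the calcium release channel downstream of Plcb2, was at 1432.1 to 2176.4 normalized counts in wild-type and 1862.0 to 2068.7 in RTP1,2DKO mice.

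Bitter receptors, the Tas2r genes by which taste cells and some tuft cells sense bitter compounds, were near the floor. Of 35 Tas2r genes, 17 had no count in any mouse, and among the 18 tested none was called in edgeR or DESeq2 or had an unadjusted p under 0.05. Over all genes these shares were 3.63%, 5.81% (of those given an adjusted p) and 12.1%. Tas2r108, the only one with a mean of at least 10 normalized counts, was at 22.8, 32.4 and 22.1 in wild-type and 14.8, 3.5 and 23.5 in RTP1,2DKO mice. Its log2 fold change was -0.93 (SE 0.57, adjusted p 0.605 in edgeR), and it was -1.56 without RTP1,2DKO mouse 3 and -0.43 without RTP1,2DKO mouse 2. Tas2r137 was at 7.6 to 11.4 normalized counts in wild-type and 1.7 to 6.9 in RTP1,2DKO mice, with a log2 fold change of -1.07 (SE 0.76, adjusted p 0.668 in edgeR).

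Of 20 genes of acetylcholine handling and reception, none was called in edgeR or DESeq2, against 3.63% and 5.81% of the genes with an adjusted p. Over all genes, 12.1% had an unadjusted p under 0.05. Slc18a3, which loads acetylcholine into vesicles, had 1.0 normalized counts in wild-type mouse 2 and none in the other mice. Slc5a7, the choline transporter of cholinergic cells, was at 18.6, 34.3 and 23.2 in wild-type and 23.2, 16.6 and 15.7 in RTP1,2DKO mice. The choline transporter-like genes Slc44a1 and Slc44a2 were the most abundant per length, with log2 fold changes of 0.04 (SE 0.12) and 0.06 (SE 0.13). Chrna10 was the only gene of the list with an unadjusted p under 0.05, at 20.9 to 36.2 normalized counts in wild-type and 42.7 to 62.2 in RTP1,2DKO mice (log2 fold change 0.93, SE 0.37, adjusted p 0.303 in edgeR). It encodes a nicotinic receptor subunit and was named after its values were seen.

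Of 15 further genes of leukotriene synthesis and reception, none was called in edgeR or DESeq2, against 3.63% and 5.81% of the genes with an adjusted p. An unadjusted p under 0.05 was found for 1 (Abcc1), against 12.1% of all genes, and the median log2 fold change was 0.01. Alox5ap, which presents arachidonic acid to 5-lipoxygenase, was at 78.6, 199.4 and 131.2 normalized counts in wild-type and 160.2, 162.2 and 145.0 in RTP1,2DKO mice. Abcc1, the exporter of leukotriene C4, was at 8032.1 to 10206.6 against 7164.9 to 8134.5, a log2 fold change of -0.27 (SE 0.12, adjusted p 0.392 in edgeR), and the microsomal transferase Mgst3 differed by -0.08 (SE 0.14). Of 14 genes of type 2 signalling around IL-25, none was called in edgeR or DESeq2 or had an unadjusted p under 0.05, beside the same shares of all genes. Il33, an epithelial alarmin, was at 4463.5, 6297.1 and 4385.9 normalized counts in wild-type and 4710.2, 6073.1 and 5920.8 in RTP1,2DKO mice, and Il13ra1 differed by 0.01 (SE 0.11) on the log2 scale. Il13 and Il9 were at or near 0, with at most 4.8 and no counts.

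**Figure D5:**
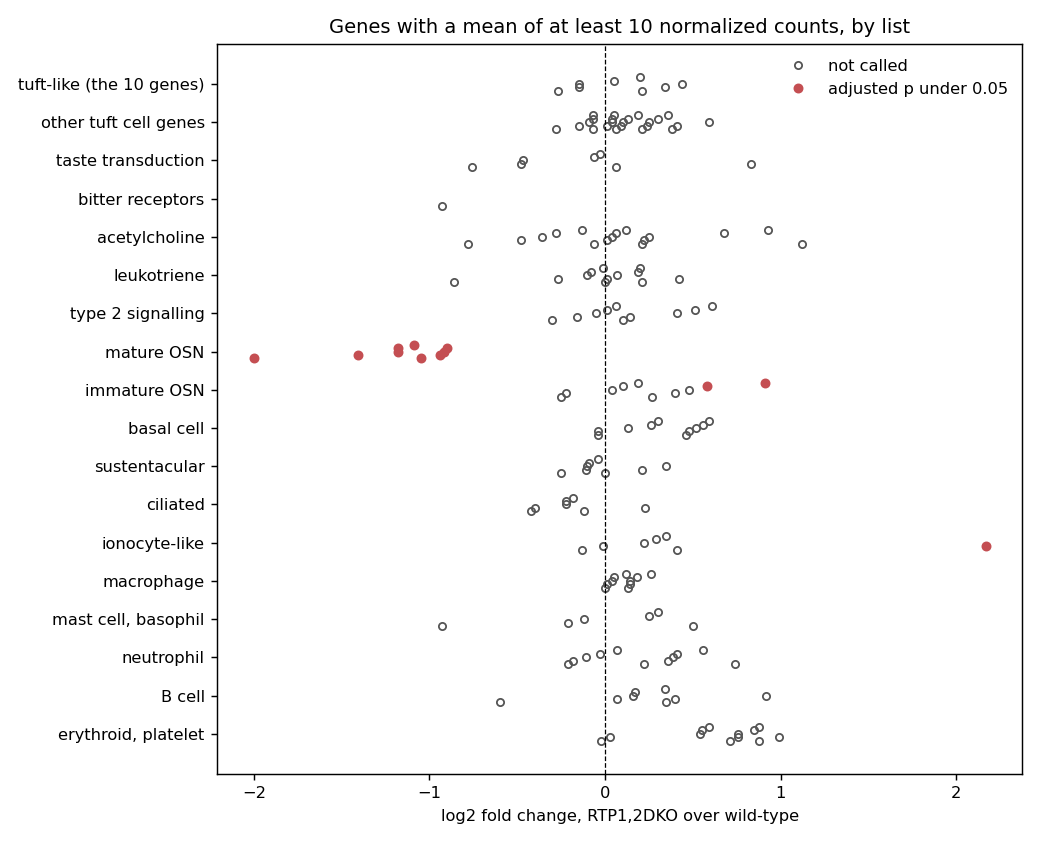
Log2 fold change of RTP1,2DKO over wild-type (horizontal axis) of single genes with a mean of at least 10 normalized counts, by list (vertical axis); filled points have an adjusted p under 0.05, and Rtp1 and Rtp2 are left out. No filled point lies among the tuft cell, taste, acetylcholine, leukotriene or type 2 lists, and the mature OSN genes lie between -2.00 and -0.90.

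Other cells of the mucosa gave the setting of these values. Besides the mature OSN genes, the genes called were Gng8 and Gap43 among 10 genes of immature OSNs, with log2 fold changes of 0.91 (SE 0.18, adjusted p 0.0125 in edgeR) and 0.58 (SE 0.14, adjusted p 0.0427 in edgeR), where 0.438% of all genes were called higher. These calls were lost without single mice: that of Gng8 without wild-type mouse 2 or RTP1,2DKO mouse 1 or 3 (adjusted p 0.0553, 0.0616 and 0.0743), and that of Gap43 without any mouse other than wild-type mouse 1 (adjusted p 0.0693 to 0.196). Stmn2 and Stmn1 of that list were at 0.19 (SE 0.12) and 0.48 (SE 0.13). With the replicate number as a block, 0.677% of all genes were called higher, Gap43 had an adjusted p of 0.0592 and Stmn1 one of 0.041 in edgeR. Among 7 genes of ionocyte-like microvillous cells, the other microvillous cells of the epithelium, Atp6v1g3 was called. It encodes a proton pump subunit and was at 5.2, 13.4 and 7.7 normalized counts in wild-type and 34.8, 29.7 and 56.8 in RTP1,2DKO mice (log2 fold change 2.17, SE 0.52, adjusted p 0.0365 in edgeR). The block raised its adjusted p to 0.055, and leaving out any mouse other than RTP1,2DKO mouse 2 raised it to between 0.0566 and 0.165. Coch, of the same list, was at 0.41 (SE 0.12, adjusted p 0.112 in edgeR; 0.0467 with the block), while Ascl3, a transcription factor of that lineage, was at 0.22 (SE 0.23).

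Lists of macrophage (10 genes), mast cell and basophil (10), neutrophil (11), B cell (9) and erythroid and platelet genes (13) held no gene called by the quasi-likelihood test. Unadjusted p-values under 0.05 were found for 0, 1, 0, 1 and 7 of their genes, where 12.1% of all genes had one. The erythroid and platelet list had a median log2 fold change of 0.76 and a lowest adjusted p of 0.0504 in edgeR, with its 7 genes under an unadjusted p of 0.05 all higher in RTP1,2DKO. Calls in this list depended on the setting: Hbb-bt was called with TMM scaling, Hbb-bt and Slc4a1 in the exact and likelihood-ratio tests, and Hbb-bs and Hbb-bt in DESeq2. Without RTP1,2DKO mouse 3 Hba-a2, Hbb-bt and Alas2 were called, and without wild-type mouse 2 Ppbp. Its summed TPM ran from 13964 to 27249 in wild-type and from 16603 to 42410 in RTP1,2DKO mice. Hbb-bs and Hba-a1 both differed by 0.76 (SE 0.23 and 0.26). Of the macrophage and neutrophil lists, Lyz2 differed by 0.13 (SE 0.21), C1qb by 0.14 (SE 0.23), S100a8 by 0.74 (SE 0.40) and Ltf by -0.18 (SE 0.24). In wild-type mice 1 to 3 Ltf was at 26559.8, 22428.1 and 41107.5 normalized counts. Ngp, of the same neutrophil list, was at 186.2, 2038.9 and 925.0 in those mice. Ltf thus did not follow Ngp, and its cell source was not tested. Hdc, of the mast cell and basophil list, differed by -0.12 (SE 0.13). Kit, on both that list and the basal one, differed by 0.30 (SE 0.11, adjusted p 0.267 in edgeR) and is counted under an unadjusted p of 0.05 in each. The wild-type means of Hdc and Kit were 778.6 and 1586.9 normalized counts, against 45.7 for Cpa3 of the mast cell list. Which cells Hdc and Kit came from was not tested. The B cell genes Ms4a1 and Vpreb3 differed by 0.34 (SE 0.33) and 0.17 (SE 0.30). Lists of basal (10 genes), sustentacular (8) and ciliated cells (7) had no gene called by the quasi-likelihood test, and DESeq2 called 1 gene in each (Top2a, Krt8 and Ccdc39). Of the basal genes, 6 of 10 had an unadjusted p under 0.05 and 6 of 10 were higher in every RTP1,2DKO mouse than in any wild-type mouse, against 12.1% and 7.17% of all genes. In the sustentacular and ciliated lists 1 and 2 genes had such a p. With the replicate block, Top2a was called (adjusted p 0.0211 in edgeR). Of these, Krt5 and Top2a differed by 0.26 (SE 0.31) and 0.52 (SE 0.15), Cyp2g1 and Sec14l3 by -0.25 (SE 0.19) and -0.11 (SE 0.14), and Ccdc39 and Tmem212 by -0.42 (SE 0.12) and -0.22 (SE 0.16). What part these cells have in the values of the 10 genes, Plcb2, Alox5, Ltc4s and Gfi1b among them, was not tested.

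The fits above did not pair the mice. Compared by replicate number, each RTP1,2DKO mouse lay below its wild-type partner for Pou2f3 and Gnat3 and above it for Plcb2 and Alox5. These are 2 of 10 genes in each direction, where 16.2% of all genes were lower and 16.1% higher in every pair. The other 6 genes had pairs in both directions.

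The variation among mice was compared with that of all 15430 genes with a mean of at least 50 normalized counts, as the Pearson correlation of deviations from the group means over 6 mice. Nearest to Trpm5 were Olfr1012 (0.997), Ctsk (0.996), Kdm4c (0.996), Nutf2 (0.995) and Hnrnpm (0.995). Nearest to Pou2f3 were Ccnh (1.0), Tcf3 (0.999), Usp21 (0.998), Exd1 (0.996) and Rnf185 (0.995). With so few mice such values are common: 513 genes (3.32% of the others) reached 0.9 with Trpm5 and 261 (1.69%) with Pou2f3. Of the other tuft-like genes with a mean of at least 50 normalized counts, Pou2f3 ran closest to Gnat3 (0.97) and Alox5 (0.89). It ran opposite to Plcb2 (-0.86), and its values with Trpm5 and Dclk1 were 0.51 and 0.18. Trpm5 was at 0.7 with Alox5, 0.4 with Gnat3, -0.15 with Dclk1 and -0.37 with Plcb2.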

How the data were processed

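RNA-Seq reads of 6 mice were assigned by the authors with kallisto (version not given in the sources used here) to mouse transcripts of mm10, per the processing notes, with extended OR models. The deposited tables give estimated counts, which need not be whole, and TPM for each transcript. The labels and the methods name different stranded library kits. Estimated counts were summed to genes and rounded, the 22152 genes counted at least 1 time were tested with edgeR 4.0.16 (quasi-likelihood test, genotype only) and DESeq2 1.42.0 size factors in R 4.3.3, and p-values were adjusted over all genes (Benjamini-Hochberg, 0.05). TPM served only for levels. Summaries used Python 3.11.15, pandas 2.3.3 and scipy 1.17.1.

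Groups and replicate numbers came from the labels. Replicates of a group differed by more than counting noise. Deviations of same-numbered mice correlated at 0.139, 0.179 and 0.103 over 18133 genes. All exceeded the limit of 0.1 set for showing a fit with the number as a block beside the unpaired one. The pairing is a hint from the values, as the labels give only the numbers.

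The genes and lists were chosen with earlier results of these data known. Named genes are the 10, the called genes of each of 17 other lists (at most 4) and the 2 of the rest with the highest mean TPM. Omp, Itpr3, Alox5ap, Slc5a7, Slc18a3, Il9, Il13, Avil, Il17rb, Chrna10, Krt8 and further globin, erythroid and platelet genes were named after their values were seen. So were Tas1r1, Ngp and Cpa3. Genes near Trpm5 and Pou2f3 were taken by correlation. A gene below about 10 normalized counts has an interval too wide for moderate changes, and those of Gfi1b, Ltc4s and Gnat3, with more counts, were wide as well. Alternatives were 3 other tests, 2 other scalings, a filter on low counts, the replicate block and each mouse left out.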

Additional observations from a re-analysis of the deposited data

How the results depend on the processing

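No call was made among the 10 tuft-like cell genes under any of the 13 alternatives, and the adjusted p of a gene of the 10 was never below 0.412. The log2 fold change of Chat, uncalled, ranged from 0.15 to 1.23 without single mice. Chat and Il25 gave no value under the filter on low counts, and DESeq2 gave Il25 no adjusted p. With 1 mouse left out at a time, the log2 fold change crossed 0 for Gnat3 (-0.76 to 0.06), Ltc4s (-0.17 to 0.84), Dclk1 (-0.11 to 0.20) and Gfi1b (-0.64 to 0.53), none of them called. The same held for uncalled genes of other lists: Kctd12 (-0.23 to 0.04), Slc44a1 (-0.03 to 0.14), Slc44a2 (-0.02 to 0.16), Mgst3 (-0.17 to 0.08), Il13ra1 (-0.07 to 0.09), Cyp2g1 (-0.38 to 0.01), Sec14l3 (-0.16 to 0), Krt5 (-0.31 to 0.52), Lyz2 (-0.11 to 0.32), C1qb (-0.09 to 0.34), Ltf (-0.45 to 0.12), Vpreb3 (-0.14 to 0.33) and Ms4a1 (-0.08 to 0.68). For each of these genes the cause was not tested.

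Over all genes, 804 were called, 97 higher and 707 lower in RTP1,2DKO. Without single mice the calls ranged from 524 (without RTP1,2DKO mouse 3) to 716, those higher from 41 to 103 and those lower from 483 to 647, with fewer samples in each fit. Higher calls numbered 61 without wild-type mouse 1 and 42, 45 and 41 without RTP1,2DKO mice 1, 2 and 3. They numbered 147 in edgeR's exact test, 169 in its likelihood-ratio test and 217 in DESeq2. With the replicate number as a block, 150 genes were higher, and among named genes the block ended the calls of Gap43 and Atp6v1g3, added Stmn1, Coch and Top2a, and changed no other. S100a8 was called without wild-type mouse 2 (adjusted p 0.0137 in edgeR) and Stmn1 without wild-type mouse 1 (0.0497). Counts under about 10, as for Chat and Il25, limit what could be seen. Gfi1b, Ltc4s and Gnat3 had more counts but also wide intervals, in folds 0.442 to 2.97, 0.479 to 2.78 and 0.447 to 1.54. Each included a fall as large as that of Omp.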
